A study of Mus musculus with 2 samples.

Results

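Egr1, Egr2, Nr4a1, Klf2, Klf4 and Klf6 are 6 transcription factor genes of the early response, chosen by name from the 54838 genes of the deposited matrices. They were measured by single-cell RNA sequencing of macrophages from mouse sciatic nerve, the large nerve of the hind limb. The mice were male, 10 to 12 weeks old and carried Flt3-Cre with the LSL-YFP fl/fl reporter, so that YFP marks cells descended from a progenitor that had expressed Flt3. Nerves of 19 mice were combined, and tissue was digested with collagenase IV, hyaluronidase and DNAse. Cells were sorted as CD64+ with intermediate CD45, split by YFP and loaded as 1 YFP- and 1 YFP+ library (10x v2). There is thus no replicate of either library, no test of YFP was made, and every interval given here is a 95% interval that covers counting error only. A lack of YFP does not show that a cell never had an Flt3+ ancestor, since Cre may fail to recombine.

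Early-response genes are transcribed within minutes of a signal, without new protein synthesis, and their messenger RNAs are short-lived. Egr1 and Egr2 are zinc-finger factors that bind GC-rich DNA and are held back by the corepressors Nab1 and Nab2, Nr4a1 (Nur77) is an orphan nuclear receptor, and Klf2, Klf4 and Klf6 belong to the Krüppel-like family, which binds GC boxes and CACCC elements. In macrophages these genes respond to adhesion, growth factors, microbial products and tissue dissociation, and Klf2 and Klf4 are known as brakes on inflammatory activation. Egr2 is also the main regulator of myelin genes in Schwann cells, the glia of peripheral nerve.

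Cells were barcodes with at least 500 UMIs (unique molecular identifiers, each of which counts 1 captured molecule) and 200 genes. The YFP- library held 1045 cells with a median of 2233 UMIs and the YFP+ library 4053 cells with a median of 1484 UMIs, and 7 barcodes occurred in both. All 8 macrophage markers of the list were detected, at a summed 9521 CPM (UMIs of a gene per 1000000 UMIs) in YFP- cells against 9350 CPM in YFP+ cells. Mast cell markers were at 0 in both. Schwann cell markers (512 and 514 CPM) and B cell markers (57.9 and 53.8 CPM) were close. The libraries were not alike in all markers. Mural cell markers summed to 8.68 CPM in YFP- against 112 CPM in YFP+ cells. Fibroblast markers were at 20.68 and 74.99 CPM, and monocyte markers at 124 and 292 CPM. Of 10 clusters of cells, 2 went against the macrophage label. One of them, 31 cells with Cldn19, Ugt8a and Ncmap among their leading genes (the Cldn19 cluster), had all 6 Schwann cell markers used at a summed 49538 CPM and macrophage markers at 522 CPM. The other, 78 cells led by Myh11, Acta2 and Myl9, had mural cell markers at 3243 CPM beside macrophage markers at 5935 CPM. Values without these clusters are given beside the library, cluster, AP-1 and marker results below.

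Of the members, 5 matched promoter sequences of RefSeq (GRCm38.p6), namely Egr2, Nr4a1, Klf2, Klf4 and Klf6. The 250 bases before the start site are shown because the members were high in the same cells. Capitals mark TGACG on either strand, the core of the cAMP response element, and the CArG box, the binding motif of serum response factor. Of the 5 entries for Egr2, the one that starts where the first annotated transcript does is shown, and its motif counts hold for that entry.
Egr2 (chr10:67537619-67537868, plus strand): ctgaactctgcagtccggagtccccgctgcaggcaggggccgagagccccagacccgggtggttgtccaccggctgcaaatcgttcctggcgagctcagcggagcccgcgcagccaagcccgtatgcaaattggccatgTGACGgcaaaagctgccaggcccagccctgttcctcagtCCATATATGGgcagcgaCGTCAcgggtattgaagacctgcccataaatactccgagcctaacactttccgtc
Nr4a1 (chr15:101266596-101266845, plus strand): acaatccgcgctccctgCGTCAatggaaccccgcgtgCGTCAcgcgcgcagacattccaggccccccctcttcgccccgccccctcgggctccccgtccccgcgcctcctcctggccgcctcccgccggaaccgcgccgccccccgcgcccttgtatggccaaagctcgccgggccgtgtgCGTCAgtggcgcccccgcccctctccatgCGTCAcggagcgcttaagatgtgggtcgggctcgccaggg
Klf2 (chr8:72318812-72319061, plus strand): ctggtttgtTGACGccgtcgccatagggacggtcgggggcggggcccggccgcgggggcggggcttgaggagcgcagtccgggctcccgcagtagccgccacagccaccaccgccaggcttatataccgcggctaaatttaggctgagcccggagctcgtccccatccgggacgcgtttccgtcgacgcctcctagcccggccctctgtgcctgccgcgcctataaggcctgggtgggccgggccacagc
Klf4 (chr4:55532476-55532725, minus strand): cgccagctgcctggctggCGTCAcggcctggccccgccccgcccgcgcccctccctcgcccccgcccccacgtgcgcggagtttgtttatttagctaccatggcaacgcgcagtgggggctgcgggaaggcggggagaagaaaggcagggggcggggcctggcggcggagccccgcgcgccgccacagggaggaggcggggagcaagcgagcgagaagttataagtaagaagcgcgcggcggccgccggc
Klf6 (chr13:5861239-5861488, plus strand): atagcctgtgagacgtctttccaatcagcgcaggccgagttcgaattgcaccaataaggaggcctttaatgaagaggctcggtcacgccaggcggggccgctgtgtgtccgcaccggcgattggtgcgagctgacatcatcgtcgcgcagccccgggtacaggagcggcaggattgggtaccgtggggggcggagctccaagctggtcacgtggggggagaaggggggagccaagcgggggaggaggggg

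Nr4a1 had 4 copies of TGACG in these 250 bases, the nearest ending 35 bases before the start site. Egr2 had 2 copies of TGACG and 1 CArG box, which ended 62 bases before the start site. Klf2 and Klf4 had 1 copy of TGACG each, at 236 and 227 bases from the start, and Klf6 had neither motif. Over 32851 promoters of the same length, leaving out chromosome 18, TGACG occurred in 17.8% and the CArG box in 1.47%. The AP-1 motif TGANTCA, present in 6.75% of promoters, was in none of these 5 windows. The GC box GGGCGG, present in 32.7% of promoters, was in the windows of Nr4a1, Klf2, Klf4 and Klf6 and not in that of Egr2. The Egr2 entry that starts farthest upstream had 4 copies of GGGCGG and neither TGACG nor the CArG box, and the next had 1 copy of GGGCGG, 1 CArG box and no TGACG. These are matches of letters and not measured sites. In the GENCODE M21 annotation of GRCm38, Egr1 lies on chromosome 18, Egr2 on chromosome 10 (67535475 to 67542188), Nr4a1 on chromosome 15 (101254269 to 101274795), Klf2 on chromosome 8 (72319033 to 72321656) and Klf6 on chromosome 13 (5861482 to 5870394), all on the plus strand. Klf4 lies on the minus strand of chromosome 4 (55527143 to 55532466). None of the 6 genes overlapped another annotated gene.

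The first comparison asked whether the members differed with the Flt3 history of the cells. All 6 had a higher level in the YFP+ library, by a median log2 ratio of 0.19, against -0.00 over the 5531 genes with a mean of at least 20 CPM. Egr1 stood at 555 CPM (interval 525 to 585) in YFP- cells against 597 CPM (579 to 616) in YFP+ cells, a log2 ratio of 0.11 (0.02 to 0.20). Egr2 stood at 35.2 CPM (28.1 to 43.5) and 51.9 CPM (46.6 to 57.6), a log2 ratio of 0.55 (0.21 to 0.90). Egr1 was thus the more abundant of the Egr genes by more than an order of magnitude in each library, and the intervals of its levels overlapped while those of Egr2 did not.

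Nr4a1 was the scarcest member, at 18.2 CPM (13.2 to 24.4) in YFP- cells against 29.2 CPM (25.3 to 33.6) in YFP+ cells, from 44 and 197 UMIs. Its ratio of 1.57-fold was the only 1 among the members past 1.5-fold with all cells. That call was not stable: of 14 alternatives, Nr4a1 was under 1.5-fold in 4 and Egr2 past it in 5. Without the Cldn19 cluster the log2 ratio of Egr2 was 0.72 and that of Nr4a1 0.61, both past 1.5-fold. Without cells that held a UMI of another cell type the log2 ratios were 0.87 and 0.39. That filter kept 562 of 1045 YFP- and 2476 of 4053 YFP+ cells. It used counts before thinning, so a single UMI of free RNA could drop a cell, and deep cells more easily. Of all genes tested, 7.3% were past 1.5-fold in either direction, 1.54% higher in YFP+ and 5.77% higher in YFP- cells. The log2 ratio of Nr4a1 was 0.65 (0.20 to 1.13). With each cell thinned to 500 UMIs it was -0.20 (-1.15 to 0.86), a wide interval that held both 0 and 0.65, so its direction was not settled. Thinning likewise took the log2 ratio of Egr2 to 0.078 (-0.62 to 0.84). With each cell weighted equally and all counts kept, the log2 ratios were 0.60 for Nr4a1 and 0.70 for Egr2.

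Klf2 was at 333 CPM (310 to 357) in YFP- cells against 356 CPM (342 to 371) in YFP+ cells. Klf4 was at 194 CPM (177 to 213) and 213 CPM (203 to 225). The log2 ratios, 0.10 (-0.02 to 0.21) for Klf2 and 0.13 (-0.02 to 0.29) for Klf4, had intervals that held 0 with all cells. Klf6, a broadly expressed factor of wound and stress responses, was at 462 CPM (435 to 489) and 550 CPM (532 to 568). Its log2 ratio was 0.25 (0.15 to 0.35), with an interval that did not hold 0. The values without the Cldn19 and Myh11-led clusters were 0.11 for Egr1, 0.73 for Egr2, 0.62 for Nr4a1, 0.10 for Klf2, 0.16 for Klf4 and 0.25 for Klf6. The interval of Klf4 (0.01 to 0.31) then lay just above 0. Of the 10 alternatives with an interval, 3 had one off 0 for Klf4 and 1 for Klf2.

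The levels of Egr2 and Nr4a1 also varied with the depth of a cell. In cells of at least 1000 and under 2000 UMIs, Egr2 was at 18.7 CPM (8 UMIs) in the YFP- against 39.2 CPM (90 UMIs) in the YFP+ library, and in cells of at least 2000 and under 4000 UMIs it was at 35.9 and 64.5 CPM. Of the 4 depth ranges, this last one was the only 1 where the Egr2 intervals of the libraries did not overlap (27.0 to 46.7 and 55.9 to 73.9 CPM). In the 72 YFP- and 79 YFP+ cells of at least 4000 UMIs Egr2 was at 61.1 CPM (37.8 to 93.4) and 59.7 CPM (37.9 to 89.6). In cells of at least 2000 and under 4000 UMIs, which held most of its UMIs, Nr4a1 was at 22.2 and 36.8 CPM. Egr1 varied less, from 501 to 640 CPM over the 4 depth ranges of YFP- and from 555 to 644 CPM over those of YFP+ cells.

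**Figure D1:**
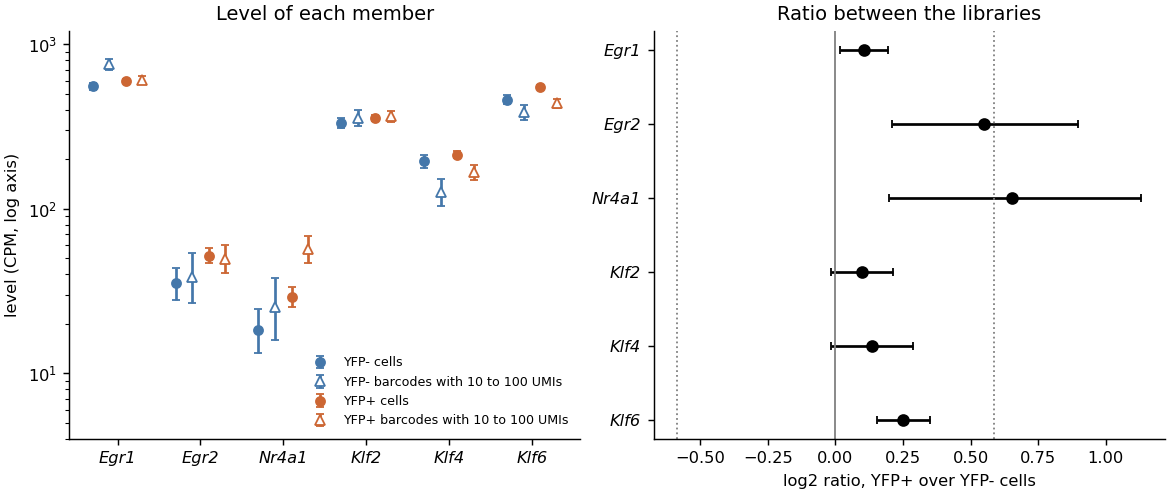
Left, level of each member in CPM on a log axis in cells (filled circles) and in barcodes with 10 to 100 UMIs (open triangles) of the YFP- (blue) and YFP+ (orange) library, with Poisson 95% intervals; right, log2 ratio of YFP+ over YFP- cells with its 95% counting interval, dotted lines at 1.5-fold. The ratios run from 0.10 for Klf2 to 0.65 for Nr4a1, and Nr4a1 alone lies beyond the dotted line.

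Relatives of the Egr and Nr4a members were scarce. Of 4 Egr and Nr4a relatives, none reached a mean of 20 CPM. Egr3 was at 7.44 CPM in YFP- cells against 14.4 CPM in YFP+ cells, and Nr4a2 at 2.48 and 3.56 CPM. The corepressor Nab2 was at 48.4 CPM in YFP- cells against 50.7 CPM in YFP+ cells, and Nab1 at 19.4 and 21.8 CPM. Of 14 other Klf genes, 5 reached 20 CPM and none was past 1.5-fold. Klf13 was the highest of them, at 155 CPM in YFP- cells against 229 CPM in YFP+ cells, followed by Klf3 at 134 and 143 CPM. Among 9 factors known to act upstream of early-response genes, 5 reached 20 CPM, with Mef2c at 608 and 618 CPM and Creb1 at 41.4 and 41.6 CPM, and none was past 1.5-fold.

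RNA outside intact cells carried the members too. In barcodes with 10 to 100 UMIs, Egr1 was at 755 CPM in the YFP- library against 610 CPM in the YFP+ one, the first of which lay above the level in YFP- cells. Nr4a1 was at 25.3 and 57.0 CPM there, and in the YFP+ library the interval (47.1 to 68.4 CPM) lay above that of the cells. Klf4 and Klf6 were lower there than in cells, Klf4 at 126 and 167 CPM and Klf6 at 387 and 437 CPM. Schwann cell markers, by comparison, were at 2613 and 4252 CPM in these barcodes against 512 and 514 CPM in cells. The part of free RNA in the levels of the cells was not tested.

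With each cell thinned to 500 UMIs, Egr1 had a UMI in 22.4% of YFP- and 22.6% (interval 21.3 to 23.9) of YFP+ cells, and Klf6 in 17.9% (15.6 to 20.4) and 20.5% (19.3 to 21.8). Free RNA alone, taken as all 500 UMIs of a cell, would give Egr1 shares of 31.5% and 26.3%. The shares of Egr1 did not exceed these. The part of free RNA in a cell was not tested, so how much of these shares was background is not known. Klf2 had a UMI in 12.9% and 13.3% of cells, against 16.3% and 16.7% from free RNA alone. Shares from free RNA take it as spread evenly over cells. A gene with uneven counts falls below them at the same mean level, so a lower share does not place it at background. The log2 ratio of Klf2 in cells over free RNA was -0.09 (-0.28 to 0.10) in the YFP- library. In the YFP+ library it was -0.03 (-0.15 to 0.09). Egr2 stood at 1.53% and 1.85% and Nr4a1 at 0.957% and 0.888%, each also below its share from free RNA alone. In YFP- cells, however, the intervals of Egr2 (0.88 to 2.47) and Nr4a1 (0.46 to 1.75) held that share, which was 1.91% and 1.26%. Klf4, at 8.52% (6.90 to 10.4) in YFP- and 9.10% (8.24 to 10.0) in YFP+ cells, was the 1 member whose interval lay above that share in both libraries (6.13% in the YFP- library). Before thinning, Egr1 had a UMI in 49.7% of YFP- and 44.4% of YFP+ cells, which follows the greater depth of the YFP- cells.

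The thinned counts of most members were more variable over the cells than those of most genes tested. The ratio of variance to mean can rise with the level, and the percentiles were not matched for level. By level, Egr1, Klf2 and Klf6 lay at percentiles 93.1 to 96.3 in the libraries. The variance of the thinned counts was 1.48 times the mean for Klf2 in YFP- and 1.61 times in YFP+ cells, at percentiles 98.7 and 99 of all genes tested. Egr1 was at percentiles 97.1 and 98.3, and Klf6 at 97.7 and 98.5. Egr2 was at percentiles 98.7 and 96.4, from 16 YFP- and 75 YFP+ cells with a UMI. In the YFP- library 13 of its 85 UMIs before thinning lay in the Cldn19 cluster, and no percentile without that cluster was taken. Nr4a1 was less extreme, at percentiles 91 and 81.9, and Klf4 differed between the libraries, at percentile 69.4 in YFP- cells (1.08 times the mean) and 97.6 in YFP+ cells. No member had a UMI in 52.3% of YFP- and 51.2% of YFP+ thinned cells, and exactly 2 members had one in 10.1% and 11.5%.

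To ask in which cells the members were high, cells were clustered without the members, their relatives and the AP-1, feedback and heat-shock genes (78 genes). AP-1 is the dimer of Fos and Jun proteins, itself a product of early-response genes. Each of the 6 members had its highest level, among clusters of at least 50 cells, in the same cluster of 259 cells, led by Cxcl2, Cxcl1, Ccl2, Egr3 and Phlda1. Cxcl2, Cxcl1 and Ccl2 are chemokines that draw in neutrophils and monocytes. The cluster held 46 YFP- cells (4.40% of that library, 3.24 to 5.83) and 213 YFP+ cells (5.26%, 4.59 to 5.99). Its macrophage markers summed to 8995 CPM, close to the sum over all cells of each library.

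Egr1 reached 1521 CPM in the Cxcl2-led cluster against 525 CPM in the other 7 clusters of macrophages, a log2 ratio of 1.53 (1.43 to 1.64). Klf6 reached 1446 against 464 CPM, a log2 ratio of 1.64 (1.53 to 1.74). Klf4 reached 481 against 190 CPM, a log2 ratio of 1.33 (1.15 to 1.51). The relative excess was greatest for the scarce members. Egr2 reached 216 against 33.3 CPM, a log2 ratio of 2.66 (2.35 to 2.96), and Nr4a1 134 against 15.4 CPM, a log2 ratio of 3.04 (2.63 to 3.44). Klf2 reached 722 against 326 CPM, the smallest log2 ratio at 1.14 (0.99 to 1.29).

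All 6 members were thus 2-fold or more higher in that cluster, where 1.63% of the genes tested were, and the median log2 ratio over all genes was -0.10. The cluster was built from these cells, so this is a description and no test. Within the libraries, 6 members were 2-fold or more higher among YFP+ cells and 5 among YFP- cells. The members lay at percentiles 98.8 to 99.9 of all genes tested among YFP+ cells. Among YFP- cells Klf2 lay at percentile 91.8 and the other 5 at 98.6 to 99.9. A 2-fold excess was less rare in that library, where Hspa8, at 2.02-fold, lay at percentile 96.1. Egr1 was at 1457 CPM in the 46 YFP- cells of the cluster and at 1540 CPM in its 213 YFP+ cells, and Nr4a1 at 144 and 131 CPM. Klf2 was the exception, with 531 CPM in the YFP- cells of the cluster, a log2 ratio of 0.72 (0.36 to 1.07), against 1.25 (1.08 to 1.41) in the YFP+ cells. Together the 259 cells carried 6.51% of all UMIs but 33.2% of those of Nr4a1, 29.7% of those of Egr2, 17.9% of those of Klf6 and 16.9% of those of Egr1. At 500 UMIs a cell, 45.2% (39.0 to 51.5) of them had UMIs of at least 2 members and 16.2% of none. Egr1 had a UMI in 53.3% (47.0 to 59.5) of them, above the share that free RNA alone would give. With cells thinned to 500 UMIs before clustering there was no shared peak, and the members were highest in 3 different clusters. The cluster then highest for Egr2, Nr4a1 and Klf2 was the lowest for Klf4 and Klf6. The cell types of those clusters were not checked.

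Other genes of the response stood high in the same cells. Of 8 AP-1 genes measured, 6 were 2-fold or more higher in the Cxcl2-led cluster, among them Atf3 at 831 against 106 CPM. Of 17 feedback and other early-response genes 12 were, with the inhibitor of NF-kB Nfkbia at 1889 against 276 CPM and the phosphatase Dusp1 at 3393 against 1034 CPM. Of 9 heat-shock genes 5 were, with Hspa1a at 3042 against 645 CPM, and all 6 inflammatory mediators were, a list not left out of the clustering. None of the 5 other Klf genes, the 5 upstream factors or the 2 corepressors was. The macrophage receptor Csf1r was at 980 against 913 CPM. Egr3, below 20 CPM on average, was at 80.4 against 8.05 CPM.

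Outside that cluster the members did not share 1 order. Klf2 was second in the cluster led by Cd209g, Cd209f and Cd209d, lectins of tissue macrophages, at 574 CPM (interval of the difference from the next cluster 0.53 to 0.88 on the log2 scale). Klf6 and Egr2 were second in the cluster led by Il1b and Ccl4, at 743 and 79.7 CPM, each above the next cluster by a difference whose interval did not hold 0. Egr1 was second in the cluster led by Slc7a13, Epor and Gpx3, at 709 CPM. For Klf4, the 7 neighbouring pairs below the top, from 228 to 132 CPM, did not differ beyond their intervals. Some clusters farther apart in that order did. Klf4 was at 228 CPM (206 to 252) in the cluster led by Ccr2 and at 174 CPM (153 to 197) in that led by Fhl3. Between the highest and the lowest cluster the log2 ratio was 2.31 for Egr1, 5.25 for Egr2, 4.22 for Nr4a1, 2.67 for Klf2, 1.86 for Klf4 and 1.94 for Klf6, so each was past 3-fold, as were 19.7% of all genes tested. The Myh11-led cluster was the lowest for Egr1, Egr2, Klf2 and Klf4, and the level of Egr2 there was a single UMI. Over the 8 clusters of macrophages alone the log2 ratio was 1.82 for Egr1, 3.96 for Egr2, 1.52 for Klf2 and 1.57 for Klf4, and the other two were as before. Klf2 (2.86-fold) and Klf4 (2.96-fold) were then under 3-fold, past which 7.56% of all genes were. Klf4 was also under 3-fold at a finer clustering (resolution 1.2), and Egr1, Klf2 and Klf4 were with cells thinned before clustering.

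**Figure D2:**
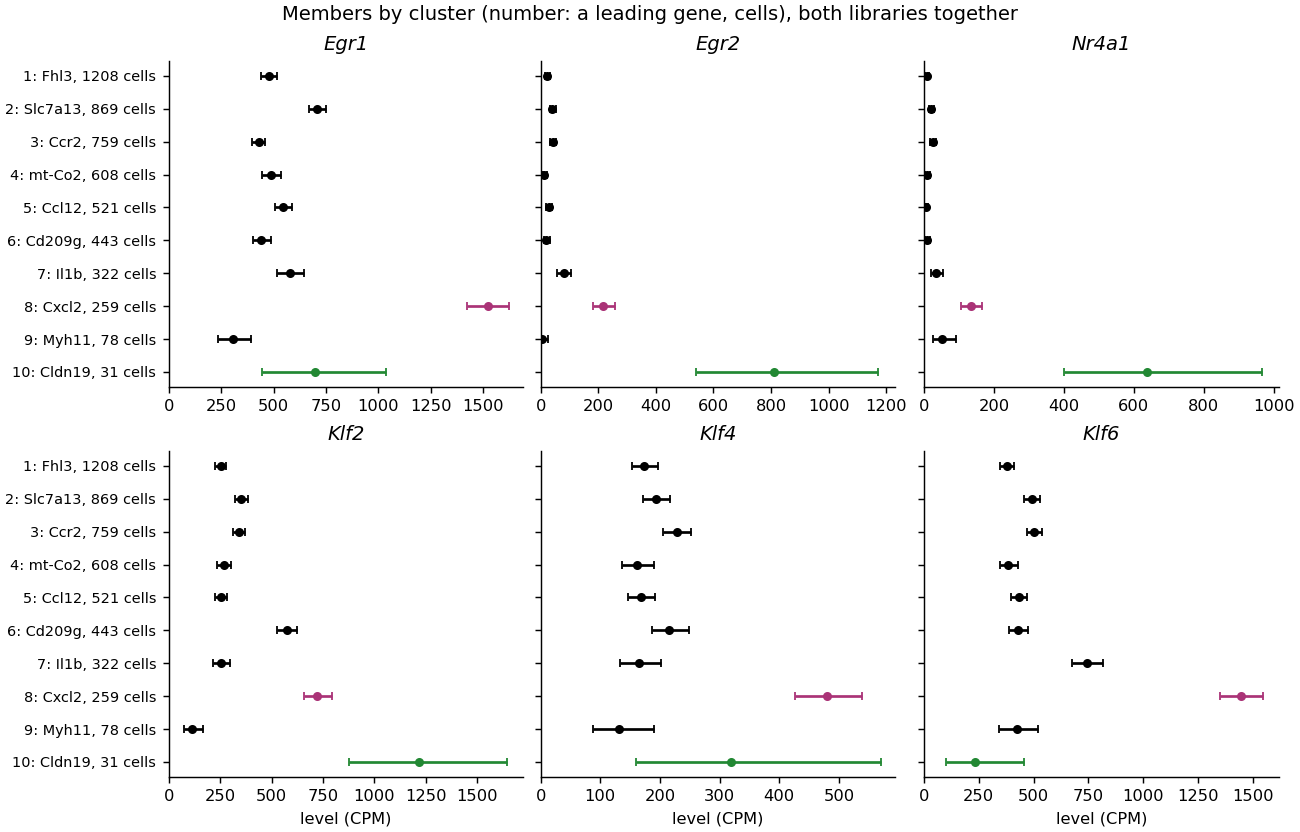
Level of each member in CPM in the 10 clusters, both libraries together, with Poisson 95% intervals; the Cxcl2-led cluster is purple and the Cldn19 cluster green. Egr1, Klf4 and Klf6 peak in the Cxcl2-led cluster (1521, 481 and 1446 CPM), while Egr2, Nr4a1 and Klf2 are higher still in the 31 cells of the Cldn19 cluster (812, 638 and 1217 CPM).

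The Cldn19 cluster, under the minimum of 50 cells for the order above, had the highest level of 3 members. Egr2 was at 812 CPM (539 to 1173, 28 UMIs) there against 44.6 CPM in all other cells, a log2 ratio of 4.16 (3.55 to 4.71). The 8 YFP- cells of the cluster had Egr2 at 1217 CPM and the 23 YFP+ cells at 630 CPM. Nr4a1 was at 638 CPM (400 to 965, 22 UMIs) against 24.0 CPM, a log2 ratio of 4.68 (3.98 to 5.31). Klf2 was at 1217 CPM (877 to 1646, 42 UMIs) against 347 CPM. Egr1 did not differ beyond counting, at 696 CPM (24 UMIs) against 585 CPM, and Klf6 was lower, at 232 CPM (8 UMIs) against 527 CPM. The 31 cells, 0.376% of all UMIs, carried 6.44% of the UMIs of Egr2 and 9.13% of those of Nr4a1. Without them Egr2 was at 29.9 CPM in YFP- cells against 49.8 CPM in YFP+ cells, and Nr4a1 at 17.0 and 26.5 CPM.

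A grouping at equal depth that did not use clusters was made as well. Thinned cells were put in ranges by their summed UMIs of Fos, Jun and Junb, 3 abundant AP-1 genes. In YFP- cells 508 had none, 321 had 1 to 2, 127 had 3 to 5 and 89 had at least 6, and in YFP+ cells the numbers were 1817, 1263, 593 and 380. Egr1 was at 319, 505, 992 and 1618 CPM over these ranges in YFP- cells and at 321, 548, 944 and 1521 CPM in YFP+ cells. Each step lay beyond the counting interval of the range before it. Klf6 was at 280, 436, 630 and 1258 CPM in YFP- cells and 294, 456, 820 and 1489 CPM in YFP+ cells. Klf2 was at 217, 287, 567 and 944 CPM and at 215, 276, 543 and 979 CPM.

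The other 3 members were less graded, apart from Klf4 in YFP+ cells. Klf4 was at 110, 212, 205 and 472 CPM in YFP- cells. In YFP+ cells it was at 117, 207, 297 and 526 CPM, each step beyond the counting interval of the range before it. Egr2 was at 23.6, 18.7, 15.7 and 225 CPM in YFP- cells, where 10 of its 20 UMIs came from the top range, and at 13.2, 19.0 and 67.5 CPM in the lower ranges of YFP+ cells, with 38 of its UMIs in the top range. Nr4a1 had 3, 2, 0 and 6 UMIs over the ranges in YFP- cells and 3, 5, 8 and 21 in YFP+ cells. Neither Egr2 nor Nr4a1 showed a step below the top range in the YFP- library, where their UMIs were too few to show one. In its range of 3 to 5 the interval was 0.40 to 87.7 CPM for Egr2 and 0 to 58.1 CPM for Nr4a1. These held the YFP+ levels of that range, 67.5 and 27.0 CPM.

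From 0 to at least 6 AP-1 UMIs, the log2 ratio was 2.34 in YFP- and 2.24 in YFP+ cells for Egr1, 2.12 and 2.18 for Klf2, 2.09 and 2.16 for Klf4 and 2.17 and 2.34 for Klf6. It was 3.20 (1.62 to 4.85) and 3.82 (2.90 to 4.81) for Egr2 and 3.41 (1.25 to 5.69) and 4.70 (3.18 to 6.19) for Nr4a1. All 6 members were past 1.5-fold in both libraries, where 22.3% of genes were in YFP- and 11.8% in YFP+ cells. Csf1r was level, at -0.23 (-0.72 to 0.23) and -0.03 (-0.26 to 0.21), and Hspa1a, an inducible heat-shock gene, was higher with them, at 4.87 and 4.24. The part of the dissociation of the tissue in these differences was not tested.

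Of the cells with at least 6 AP-1 UMIs, 29.4% were in the Cxcl2-led cluster and 2.56% in the Cldn19 one. Without the Cldn19 and Myh11-led clusters the log2 ratios were 2.26 and 2.21 for Egr1 and 2.19 and 2.37 for Klf6 in YFP- and YFP+ cells, while that of Egr2 in YFP- cells was 2.23 (0.22 to 4.13, 5 UMIs in the top range). Without the Cxcl2-led cluster as well, they were 2.08 and 2.01 for Egr1, 2.17 and 1.98 for Klf2, 1.94 and 2.05 for Klf4 and 1.98 and 2.21 for Klf6. In YFP+ cells Egr2 was then at 3.43 (2.33 to 4.56, 19 UMIs in the top range) and Nr4a1 at 3.98 (2.19 to 5.65, 9 UMIs). The excess with AP-1 was therefore not limited to the Cxcl2-led cluster for any member in YFP+ cells, nor for Egr1 and the Klf members in YFP- cells. In YFP- cells the top range then held 3 UMIs of Egr2 and 1 of Nr4a1, and no difference was detectable at that depth.

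**Figure D3:**
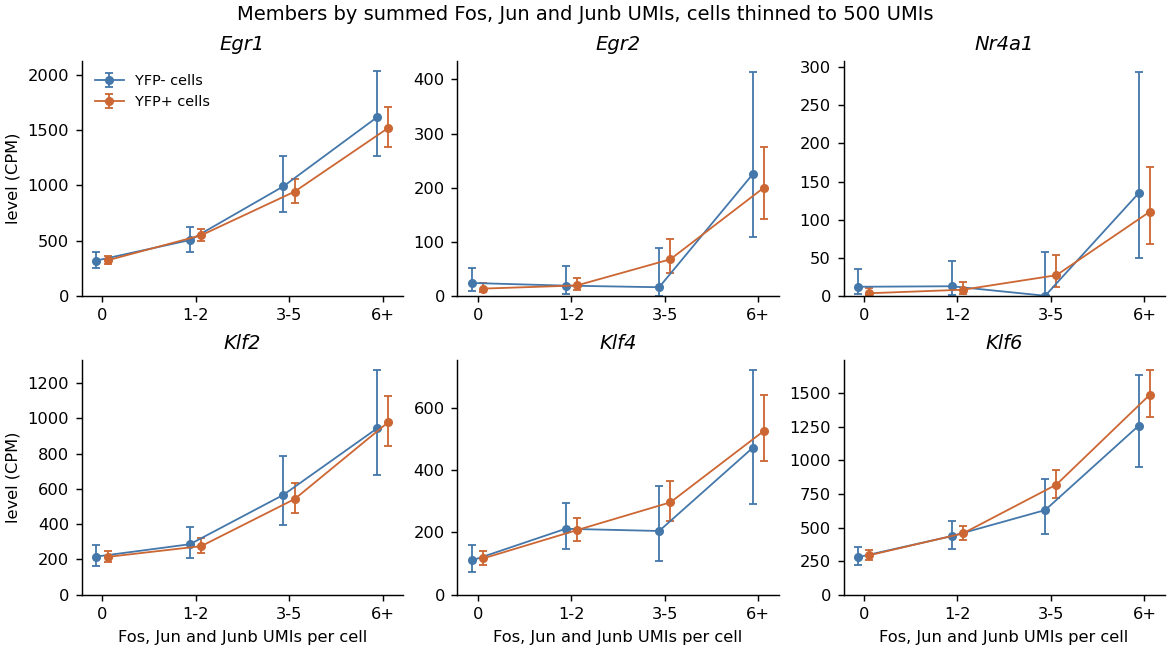
Level of each member in CPM (vertical axis, from 0) in cells thinned to 500 UMIs, by their summed UMIs of Fos, Jun and Junb (horizontal axis), for YFP- (blue) and YFP+ (orange) cells with Poisson 95% intervals. Egr1 runs from 319 to 1618 CPM in YFP- and from 321 to 1521 CPM in YFP+ cells. Egr2 and Nr4a1 have too few UMIs below the top range in YFP- cells to show a step there.

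Correlations across the cells of a library describe the same relation. They were taken on Pearson residuals, which remove the depth of a cell, and the cells share a library and its free RNA. Genes were ranked by the lower of their r in the YFP- and the YFP+ library, so the order within 1 library can differ. Fos was the gene most like Egr1 (r of 0.49 over the 1045 YFP- and 0.44 over the 4053 YFP+ cells), Klf6 (0.45 and 0.44), Klf4 (0.40 and 0.26) and Klf2 (0.29 and 0.29). By that rule Jun was second for Egr1 and Klf6, although in YFP- cells Junb (0.46) was above Jun (0.39) for Egr1, and Dusp1 was among the 5 most alike for each of these 4 members. Junb was the gene most like Nr4a1 (0.45 and 0.42), followed by Btg2 (0.27 and 0.27) and the heat-shock gene Dnajb1. For Egr2 the rule gave Junb (0.22 and 0.25), Fosb and Fos, of which Fos was the highest in YFP+ cells (0.31).

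Between the members themselves, over 15 pairs, r had a median of 0.17 in YFP- cells (0.01 to 0.28). In YFP+ cells the median was 0.17 (0.05 to 0.26). These medians cannot be set against the values above, which belong to genes picked as the most alike. Counting noise also lowers r more for scarcer genes, and levels were not matched. Klf6 with Egr1 gave the highest value in both libraries, 0.28 and 0.26. With cells thinned to 500 UMIs the medians were 0.05 and 0.06, and at these counts such values are no finding for a single pair. In the clusters of macrophages other than the Cxcl2-led one, before thinning, the medians were 0.10 and 0.11. With the 2 Schwann cell markers above the filter, Pmp22 and Mbp, both components of myelin, Egr2 had a median r of 0.30 in YFP- and 0.10 in YFP+ cells and Nr4a1 one of 0.09 and 0.16. The other 4 members lay between -0.02 and 0.05. Without the Cldn19 cluster the values were -0.00 and -0.01 for Egr2 and 0.00 and 0.02 for Nr4a1, so both relations rested on its 31 cells. The median r with 8 macrophage markers lay between -0.03 and 0.01 for every member.

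**Figure D4:**
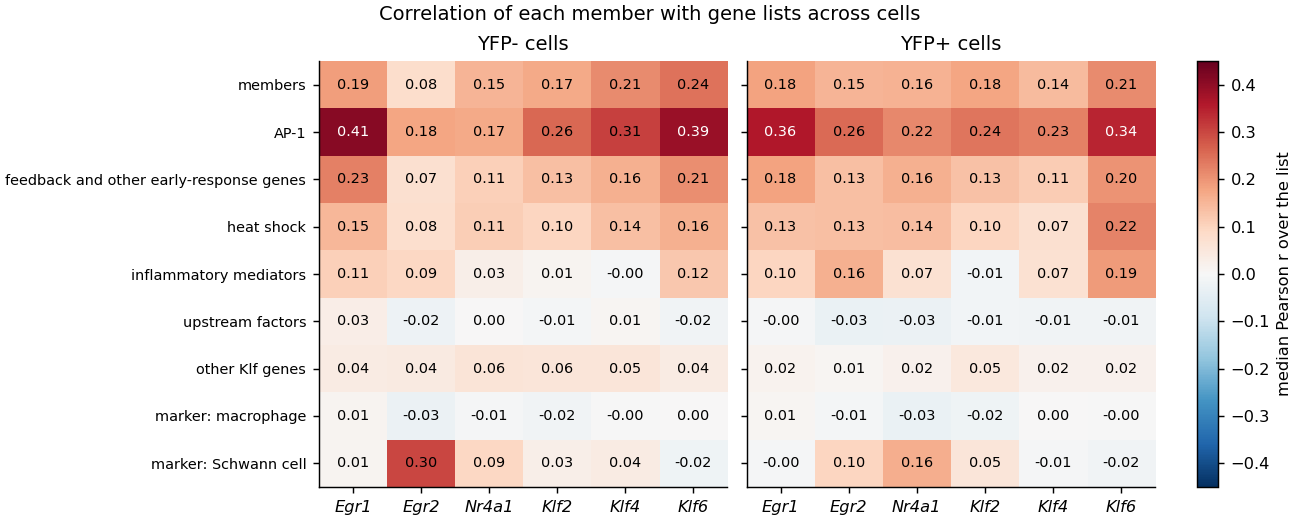
Median Pearson r across cells of each member (columns) with the genes of each list (rows), in YFP- (left) and YFP+ (right) cells; red is positive and blue negative. The AP-1 row is highest for Egr1 (0.41 and 0.36) and Klf6 (0.39 and 0.34), and the Schwann cell row is highest for Egr2 in YFP- cells (0.30) and for Nr4a1 in YFP+ cells (0.16), with the Cldn19 cluster included.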

How the data were processed

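The authors made and deposited raw UMI counts per gene and barcode with Cell Ranger on GRCm38 (the methods give another version than the submitters' processing notes, which list 3.0.2, with Seurat 2.2.0); the annotation release is not given in the sources used here. No filter on cells had been applied. Of the 54838 gene IDs, 99.8% were in GENCODE M21. The members and all gene lists were chosen with earlier results of these data known.

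From the counts of barcodes with at least 500 UMIs and 200 genes, counts were summed and given as CPM with exact Poisson intervals. UMIs count molecules, so levels were not divided by gene length. Log2 ratios used a pseudocount of 1 CPM and exact conditional binomial intervals, and shares Clopper-Pearson intervals. Genes with a mean of at least 20 CPM were tested against 1.5-fold. The libraries held 2418044 (YFP-) and 6747554 (YFP+) UMIs in cells, and a floor of 3 counts was 1.24 and 0.445 CPM. Free RNA was measured in barcodes with 10 to 100 UMIs. To compare cells of unlike depth, each was thinned at random to 500 UMIs with a fixed seed, at which 1 UMI is 2000 CPM.

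Clustering (Leiden, resolution 0.8, 2000 variable genes, 20 principal components, 20 neighbours, seed 0) left out the members and 7 related lists. Correlations used analytic Pearson residuals (theta of 100) and genes of at least 50 CPM for the 5 most alike genes of each member. The genes named were the members, up to 4 genes of the highest mean CPM in each list, the 5 most alike and the 5 leading genes of each cluster; 1 gene of the marker lists is not reported here and was left out of these, of the marker sums and of the marker correlations. Atf3, Nfkbia, Hspa1a, Csf1r and others named beside the Cxcl2-led cluster or the AP-1 ranges were in the lists and were picked after their values were seen where they fall outside that rule. Scrublet marked 3 YFP- and 0 YFP+ cells, so it had not worked, and doublets were kept. Ratios were checked on simulated Poisson counts with the totals of the libraries. Such counts hold no variation between cells or between libraries beyond counting, so the check covers the calculation only. Tools were Python 3.11.15, numpy 2.4.6, scipy 1.17.1, pandas 2.3.3, leidenalg 0.10.2, igraph 0.11.9, scikit-learn 1.9.0, anndata 0.12.19, scanpy 1.11.5 and matplotlib 3.10.9. Promoters were those of RefSeq on GRCm38.p6. Alternatives were the pseudocount, the filters on genes and cells, the thinning depth and the clustering; those leaving out clusters or weighting them alike were chosen after seeing the data.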

Additional observations from a re-analysis of the deposited data

How the results depend on the processing

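No paired analysis was possible because each condition was 1 library, and for the same reason no replicate could be left out. Between the libraries, thinning to 500 UMIs gave log2 ratios of 0.078 for Egr2 and -0.20 (-1.15 to 0.86) for Nr4a1. Only a member past 1.5-fold with all cells could be marked as reversed, and Nr4a1 was. Klf2 changed sign as well, from 0.10 to -0.065 (-0.23 to 0.10), without cells that held a UMI of another cell type. Klf4 was at 0.43 under that filter, which kept 562 of 1045 YFP- and 2476 of 4053 YFP+ cells. The cause of these shifts was not tested. The other 80 of 84 alternatives for these ratios lay within the counting interval. Some of them could hardly move a ratio: Scrublet took out 3 YFP- and 0 YFP+ cells, 7 barcodes were shared, and the median log2 ratio set to 0 was -0.002. The 80 are therefore no measure of stability. The 1.5-fold call moved with the alternatives: Nr4a1 was under it in 4 of 14 and Egr2 past it in 5 of 14. The genes past 1.5-fold, 404 at a mean of at least 20 CPM, numbered 181 at 50 CPM, 1290 at 5 CPM and 931 after thinning.

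Shares of cells with a UMI follow the depth by construction. Without thinning they were 49.7% (Egr1), 5.45% (Egr2), 2.78% (Nr4a1), 33.4% (Klf2), 26.8% (Klf4) and 47.5% (Klf6) of YFP- cells and 44.4%, 6.32%, 3.26%, 28.1%, 23.7% and 43.6% of YFP+ cells. At 300 UMIs they were 13.9% (Egr1), 8.61% (Klf2), 6.22% (Klf4) and 12.2% (Klf6) of YFP- and 13.7%, 8.56%, 6.27% and 13.0% of YFP+ cells, with Egr2 at 1.43% of YFP+ cells. At 1000 UMIs, in the cells that deep, they were 34.2% (Egr1), 2.79% (Egr2), 20.8% (Klf2), 15.0% (Klf4) and 29.1% (Klf6) of YFP- and 36.6%, 4.29%, 22.4%, 17.0% and 34.8% of YFP+ cells, with Nr4a1 at 2.13% of YFP+ cells.

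The log2 ratio of the highest over the lowest cluster was 2.07 for Klf2 and 2.20 for Klf6 at resolution 0.4, and 1.78 for Klf2, 1.07 for Klf4 and 1.63 for Klf6 at resolution 1.2, where the highest cluster of Klf2 was another than that of the other 5 members. With only the members left out it was 1.70 for Klf2 and 2.49 for Klf6. With cells thinned before clustering it was 1.40 for Egr1, 6.37 for Nr4a1, 1.24 for Klf2, 0.87 for Klf4 and 2.12 for Klf6. The members then peaked in 3 different clusters, so that the shared peak was not seen in that clustering, whose cell types were not checked. Without the Cldn19 and Myh11-led clusters it was 1.82 for Egr1 and 1.52 for Klf2. The 3-fold call was lost there for Klf2 and Klf4, at resolution 1.2 for Klf4, and with thinned cells for Egr1, Klf2 and Klf4. From 0 to at least 6 AP-1 UMIs, cells thinned to 1000 UMIs gave 2.87 for Egr1 in YFP- cells and 1.79 for Klf2 and 1.43 for Klf4 in YFP+ cells. The cuts were kept at 1000 UMIs, so the groups compared were others. The top range held 19.1% of YFP- and 22.3% of YFP+ cells, against 8.52% and 9.38% at 500 UMIs. Cells under 1000 UMIs were left out. Of 60 pair correlations under other settings, 25 were marked as moved. No interval is given here for a correlation, and 1 of the settings, the logarithm of thinned counts, is another measure than Pearson residuals. With 1 library per condition, a difference between YFP- and YFP+ cells cannot be told apart from one between libraries.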
